A study of Mus musculus with 12 samples.

Results

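The 10 genes described here encode the machinery through which microglia, the resident macrophages of the brain, sense interleukin-4 (IL-4): the receptor chains *Il4ra*, *Il2rg* and *Il13ra1*, the Janus kinases *Jak1*, *Jak2*, *Jak3* and *Tyk2*, the transcription factor *Stat6*, the adaptor *Irs2* and the phosphatase *Ptpn6*. They were chosen by name as known parts of this pathway, and all 10 were found among the 48623 genes of the expression table, each under 1 identifier. All 10 were also among the 11204 genes with enough signal to be tested. RNA was sequenced from primary microglia of wild-type (WT) mice and of knock-in (KI) mice carrying R47H on both copies of *Trem2*, all with a C57BL/6J background. There were 6 cultures, 3 from WT mice (T13, T33, T43) and 3 from KI mice (T15, T22, T32), and each gave 1 untreated library and 1 library harvested after 48 h with 20 ng/ml IL-4. This makes 4 groups of 3 libraries, with genotype varying between cultures and IL-4 varying within them.

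The cells came from the cortex and hippocampus of newborn pups, were grown as mixed glia for about 3 weeks and were then freed of the astrocyte layer by mild trypsin. In this mouse line the knock-in also lowers *Trem2* through altered splicing, so it combines a changed protein with less of it. *Trem2* was at 325 to 770 TPM in the 6 KI libraries and at 1190 to 1886 TPM in the 6 WT libraries, and *Retnla*, a classical IL-4 target, was at 96.1 to 2822 TPM after IL-4 against 0 TPM in each of the 6 untreated libraries, as the labels require. TPM is a transcript abundance corrected for length that sums to 1000000 in every library. It keeps no read numbers. The depth of a value is therefore unknown, and precision is given by the spread between cultures. That libraries with 1 number come from 1 culture was taken from their titles, since neither the labels nor the methods say so outright. Differences are on the log2(TPM + 1) scale with their standard error (SE), and p-values from limma were adjusted over all 11204 genes by the Benjamini-Hochberg method.

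The libraries differed in their levels of microglial marker RNA. The mean log2 level of 18 microglial markers was 7.98 to 8.60 in WT and 7.26 to 8.10 in KI libraries, and was lowest in untreated T15, where 8 astrocyte markers summed to 4599 TPM. Treated T15 followed at 3509 TPM, and the other 4 KI libraries were at 205 to 598 TPM. Among WT libraries the sum was 591 and 661 TPM in T13 and 157 to 192 TPM in T33 and T43. Every KI library thus lay above those of T33 and T43. The 9 markers of mural cells and fibroblasts summed to 141 to 553 TPM in WT and 701 to 1313 TPM in KI libraries. Markers of T, B and NK cells, which also use this pathway, summed to at most 2.86 TPM in any library. The study reported lower levels of some of these microglial markers with reduced *Trem2*. It also reported that the proportion of microglia did not differ substantially between WT and homozygous KI cultures. In bulk samples such as these, fewer cells of a type and less RNA per cell cannot be told apart. This holds also for the values given below relative to microglial markers.

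IL-4 binds the α chain encoded by *Il4ra*, which then recruits a second chain. With the common γ chain, encoded by *Il2rg*, it forms the type I receptor, the usual form of blood cells, in which Jak1 sits on the α chain and Jak3 on the γ chain. With *Il13ra1* it forms the type II receptor, which also binds IL-13 and signals through Jak1 with Tyk2 or Jak2. The kinases phosphorylate Stat6, which moves to the nucleus and switches on genes of alternative macrophage activation, and Irs2, which couples the receptor to PI3-kinase. The SHP-1 phosphatase, encoded by *Ptpn6*, removes these phosphates and is abundant in blood-derived cells and microglia.

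The RefSeq promoter stretches of all 10 genes were read for the palindromes that STAT dimers bind. Stat6 prefers the form with 4 bases between the arms, TTCNNNNGAA, and other STATs the form with 3, TTCNNNGAA, each the same on both strands. In the 250 bases before the start, 5.85% and 7.02% of 32851 mouse promoters hold them, and 0 of the 10 members did. These letters are therefore not in these windows, and nothing is drawn from that about Stat6. The stretches of the second receptor chains and of *Stat6* are shown because their levels are compared below. Capitals mark the ETS-family core letters CCGGAA, held by 12.0% of promoters, in *Il2rg* at 17 to 12 bases before the start, and GAGGAA, held by 23.3%, read on the opposite strand in *Stat6* at 72 to 67 and 66 to 61 bases before the start. The ETS letters were chosen after the stretches had been read, both strands were searched, and no matches overlapped. Sequences are from RefSeq on GRCm38.p6, written 5′ to 3′ along the gene.
Il2rg (chrX:101268256-101268505, minus strand): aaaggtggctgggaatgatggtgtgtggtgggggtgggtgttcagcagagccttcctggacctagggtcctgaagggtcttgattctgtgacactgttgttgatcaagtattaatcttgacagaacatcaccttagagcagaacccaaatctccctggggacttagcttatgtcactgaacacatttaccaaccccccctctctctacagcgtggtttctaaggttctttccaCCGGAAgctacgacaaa
Il13ra1 (chrX:36111858-36112107, plus strand): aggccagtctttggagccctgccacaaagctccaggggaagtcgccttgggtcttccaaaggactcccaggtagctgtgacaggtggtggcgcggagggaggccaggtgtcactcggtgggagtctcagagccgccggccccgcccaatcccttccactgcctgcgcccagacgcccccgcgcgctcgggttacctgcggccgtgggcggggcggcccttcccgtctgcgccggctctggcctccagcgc
Stat6 (chr10:127642736-127642985, plus strand): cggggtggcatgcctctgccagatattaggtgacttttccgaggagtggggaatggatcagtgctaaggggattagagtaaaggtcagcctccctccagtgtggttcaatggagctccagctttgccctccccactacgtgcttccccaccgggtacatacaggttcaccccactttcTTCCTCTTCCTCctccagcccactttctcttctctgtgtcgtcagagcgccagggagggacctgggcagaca
The *Il2rg* stretch had a GC content of 49.2% and 3 CpG dinucleotides, whereas that of *Il13ra1* had 70.8% and 21, and that of *Stat6* 56.8% and 6.

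Every part of the pathway was detected in the microglial cultures of both genotypes. *Ptpn6* had the highest mean in all 4 groups, which without IL-4 was 280 ± 25.9 TPM for WT and 148 ± 49.6 TPM for KI cultures (SD, n = 3 each). In untreated WT cultures *Stat6* at 82.4 ± 23.6 TPM, *Jak1* at 73.9 ± 5.53 TPM and *Il2rg* at 57.9 ± 16.5 TPM followed, with overlapping ranges between neighbours. *Il4ra* at 21.6 ± 5.74 TPM and *Il13ra1* at 20.9 ± 3.304 TPM came next and overlapped each other. *Tyk2*, *Jak3*, *Irs2* and *Jak2* lay lowest, with means of 9.16 to 11.1 TPM and overlapping ranges. After IL-4, *Il2rg* held the second place in both genotypes, at 104 ± 32.5 TPM (WT) and 79.2 ± 20.4 TPM (KI), although its range still overlapped that of the next gene. *Jak2* moved from the last place to the sixth in WT. Over the 12 libraries the mean of *Ptpn6* lay above 94.4% of the genes tested, those of *Il2rg*, *Stat6* and *Jak1* above 81.9% to 82.5%, and that of *Jak3* above 32.9%.

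**Figure D1:**
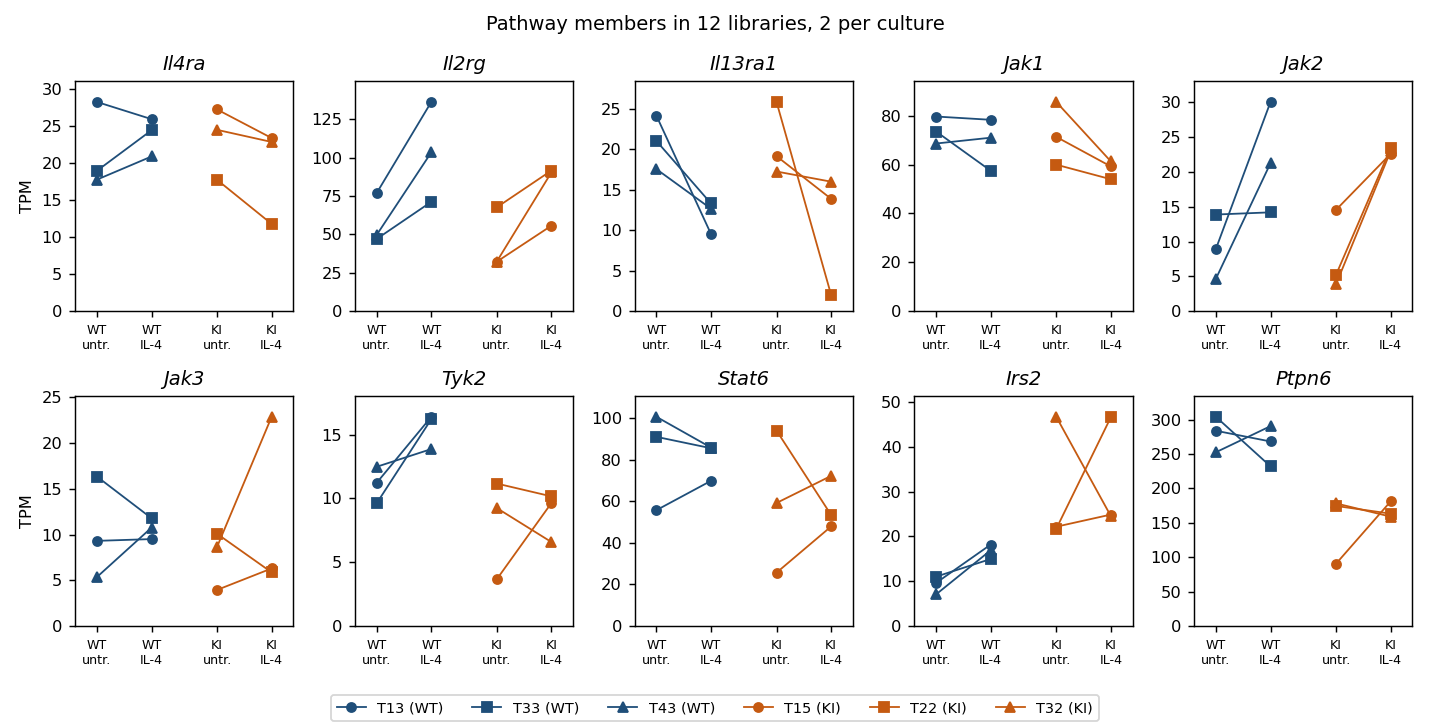
TPM of the 10 genes in the 12 libraries (y axis from 0, TPM), where each line joins the untreated and the IL-4 library of 1 culture and colour marks genotype. *Il2rg* and *Jak2* lines go up and *Il13ra1* lines go down in all 6 cultures, and every KI point of *Ptpn6* lies below and every KI point of *Irs2* above the WT points.

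IL-4 was compared with no treatment to ask whether the cytokine altered its own sensing machinery. No member passed the threshold for IL-4 in the fit that treats the libraries as independent (limma's F-test), beside 0.893% of all genes tested, or 100 genes. At an unadjusted p under 0.05 there were 3 members, *Il2rg*, *Il13ra1* and *Jak2*, and 814 genes in all, or 7.27%. With culture as a block, which removes differences between cultures, *Il2rg* alone of the 10 passed, beside 2.14% of all genes, or 240 genes. *Il2rg* and *Jak2* were higher after IL-4 in 6 of 6 cultures, as were 5.73% of the genes tested, and *Il13ra1* was lower in 6 of 6, as were 2.51%.

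*Il2rg* (ENSMUSG00000031304, chrX:101264378-101268255 of GRCm38, minus strand), the γ chain shared by the receptors for IL-2, IL-4, IL-7, IL-9, IL-15 and IL-21, went from 76.9 to 136 TPM in T13, from 47.03 to 71.2 TPM in T33 and from 49.7 to 103 TPM in T43. In the KI cultures it went from 32.2 to 55.6 TPM in T15, from 67.6 to 91.5 TPM in T22 and from 32.3 to 90.3 TPM in T32. All 6 cultures were thus higher after IL-4, by 1.35- to 2.79-fold with a median of 1.75-fold. Untreated and treated libraries overlapped, and the untreated ones ranged from 32.2 to 76.9 TPM. The average log2 difference was 0.85. In limma's F-test its SE was 0.23 without the block (adjusted p = 0.331) and 0.15 with it (adjusted p = 0.0279), so the call rests on the block while the size of the difference does not. The response was 0.82 in WT and 0.89 in KI cultures (SE 0.33 each), and the difference between them was 0.07 (SE 0.47).

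*Il13ra1* (ENSMUSG00000017057, chrX:36112110-36171259, plus strand), the alternative second chain, moved the other way. It went from 24.2 to 9.54 TPM in T13, from 21.05 to 13.3 TPM in T33 and from 17.6 to 12.7 TPM in T43, and in KI cultures from 19.2 to 13.9 TPM in T15, from 25.9 to 2.02 TPM in T22 and from 17.3 to 16.0 TPM in T32. Every treated library lay below every untreated one, a separation seen in 0.25% of the genes tested. The average log2 difference of -1.003 (SE 0.37) was not called by limma's F-test without the block (adjusted p = 0.675) or with it (adjusted p = 0.466). Its size owed much to T22, without which it was -0.52, while T32 was nearly level.

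The levels of the second chains can also be set against each other, which restates the values above and is no separate result. The ratio of *Il2rg* TPM to *Il13ra1* TPM was 1.68 to 3.18 in the 6 untreated libraries and 4.005 to 45.4 after IL-4, with medians of 2.42 and 6.90. The highest value was that of T22 after IL-4, where *Il13ra1* was at 2.02 TPM, and the next was 14.3 in T13. No untreated library reached the lowest treated one. The genotypes overlapped before and after IL-4.

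*Il4ra* (ENSMUSG00000030748, chr7:125552120-125579474, plus strand), the chain that binds IL-4 itself, was steady. In the order T13, T33 and T43 it was at 28.2, 18.9 and 17.7 TPM untreated and at 25.9, 24.4 and 20.9 TPM after IL-4. In the order T15, T22 and T32 it was at 27.2, 17.7 and 24.5 TPM untreated and at 23.4, 11.8 and 22.8 TPM after IL-4. The values were lower after IL-4 in 4 of 6 cultures, including all 3 KI cultures, and all 4 groups overlapped. The IL-4 difference was -0.07 and the genotype difference -0.12 (SE 0.22 each, adjusted p = 0.999 and 0.825, limma's F-test). The IL-4 response was 0.15 in WT and -0.29 in KI cultures (SE 0.32 each), a difference of -0.44 (SE 0.45) with an adjusted p of 0.9997.

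**Figure D2:**
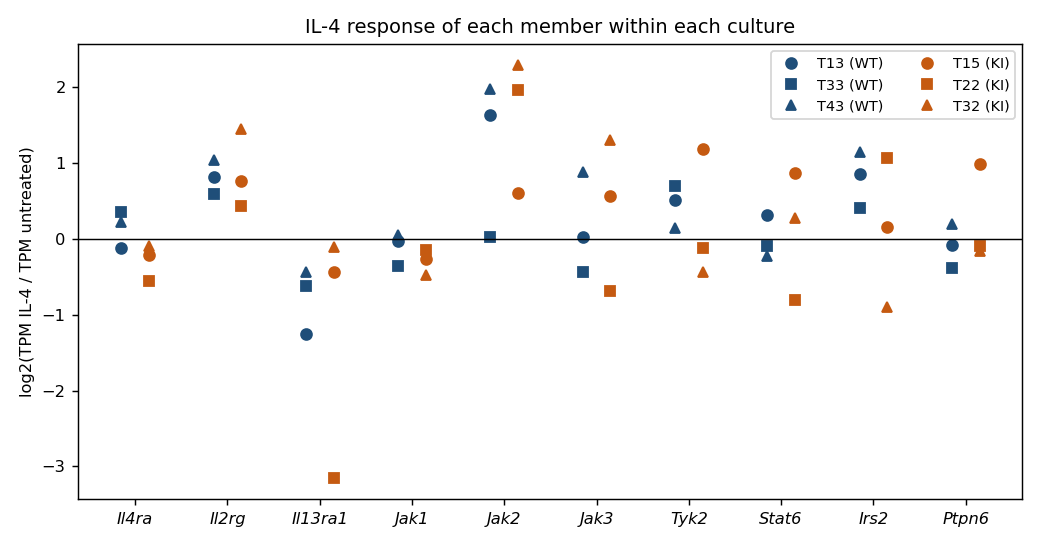
Log2 ratio of IL-4 to untreated TPM for each gene (x axis), 1 point per culture, with WT in blue and KI in orange. All 6 points lie above 0 for *Il2rg*, from 0.43 to 1.45, and for *Jak2*, from 0.03 to 2.30, and below 0 for *Il13ra1*, from -3.16 to -0.10, while *Stat6* has 3 on each side.

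Among the kinases the level of *Jak2* differed most with IL-4. Jak2 serves the receptors for GM-CSF and interferon-γ and can act at the type II IL-4 receptor. *Jak2* (ENSMUSG00000024789, chr19:29251828-29313080, plus strand) measured 8.95, 13.9 and 4.66 TPM in T13, T33 and T43 before IL-4 and 30.0, 14.2 and 21.2 TPM after IL-4. In T15, T22 and T32 it was at 14.5, 5.22 and 3.87 TPM untreated and at 22.6, 23.4 and 23.0 TPM after IL-4. Treated libraries lay above untreated ones within each genotype, as in 1.94% of the genes tested, but the margin in WT was only that between T33 before and after IL-4. The 3 treated KI cultures were closely alike, at 23.0 ± 0.397 TPM (SD, n = 3). The average log2 difference of 1.42 (SE 0.33) was not called (limma's F-test, adjusted p = 0.180 without the block and 0.107 with it).

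*Jak1* (ENSMUSG00000028530, chr4:101152367-101265282, minus strand), the kinase of the α chain, had the smallest SD relative to its mean of the 10 members and ranged from 54.0 to 85.6 TPM over the 12 libraries. The WT cultures had 79.7, 73.5 and 68.6 TPM untreated and 78.3, 57.4 and 71.0 TPM after IL-4. The KI cultures had 71.3, 59.96 and 85.6 TPM untreated and 59.2, 54.0 and 61.3 TPM after IL-4. It was lower after IL-4 in 5 of 6 cultures, by 0.20 on average (SE 0.13, adjusted p = 0.955, limma's F-test), and the genotypes overlapped in each treatment, as did the treatments in each genotype.

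*Jak3* (ENSMUSG00000031805, chr8:71676296-71690575, plus strand) is the kinase that attaches to the γ chain. Its values were 9.31, 16.3 and 5.36 TPM untreated and 9.51, 11.8 and 10.8 TPM treated in WT, and 3.95, 10.1 and 8.65 TPM untreated and 6.30, 5.87 and 22.9 TPM treated in KI cultures. It was higher after IL-4 in 4 cultures and lower in 2, and the highest value by far was that of treated T32. Across cultures its IL-4 ratio was lowest in T22 and T33 (0.582 and 0.721) and highest in T43 and T32 (2.01 and 2.64). Neither IL-4 (0.28, SE 0.38) nor genotype (-0.25, SE 0.38) gave a call. The IL-4 difference was 0.047 without T32, 0.093 without T43, 0.42 without T33 and 0.55 without T22, and the genotype difference -0.61 without T32, -0.43 without T43, -0.034 without T33 and 0.062 without T15. The last kinase, *Tyk2* (ENSMUSG00000032175, chr9:21104068-21131243, minus strand), also of the type I interferon receptor, was at 11.2, 9.62 and 12.5 TPM before IL-4 and at 16.4, 16.2 and 13.9 TPM after it in WT cultures. In KI cultures it was at 3.67, 11.2 and 9.24 TPM untreated and at 9.64, 10.2 and 6.58 TPM after IL-4. After IL-4 all KI libraries lay below all WT libraries, as for *Ptpn6* and 5.79% of the genes tested. The genotype difference of -0.65 (SE 0.28) was not called (limma's F-test, adjusted p = 0.414), and relative to microglial markers it was -0.074.

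Summed over the 4 kinases, the TPM was 86.4 to 113 in untreated libraries and 93.4 to 134 after IL-4. *Jak1* made up 64.9% to 79.7% of that sum without IL-4 and 53.9% to 60.7% with it, and *Jak2* 3.603% to 15.6% and 14.2% to 25.0%. The *Jak1* shares of treated and untreated libraries did not overlap, whereas the *Jak2* shares did, through untreated T15 and treated T33. Shares within a sum are tied to each other, so these are not separate observations.

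**Figure D3:**
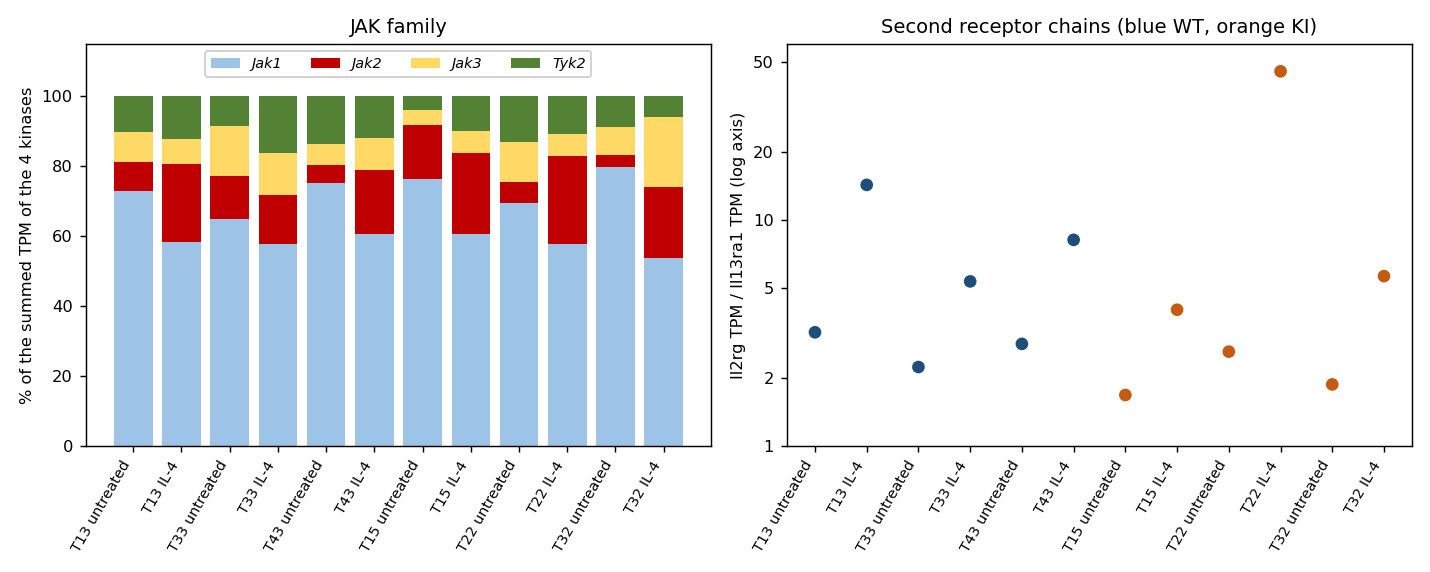
Left, the share of each kinase in the summed TPM of the 4 JAK genes (percent) in each library. Right, the ratio of *Il2rg* to *Il13ra1* TPM on a log axis, with WT in blue and KI in orange. The *Jak1* share is below 61% in every IL-4 library, and every IL-4 library has a ratio of at least 4.005 against at most 3.18 without IL-4.

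*Stat6* (ENSMUSG00000002147, chr10:127642986-127660957, plus strand) did not show a common direction with IL-4. It measured 55.7, 90.9 and 100.5 TPM in T13, T33 and T43 before IL-4 and 69.8, 85.4 and 85.8 TPM after IL-4. In T15, T22 and T32 it was at 25.6, 93.9 and 59.1 TPM untreated and at 47.8, 53.4 and 72.1 TPM after IL-4. It was higher after IL-4 in 3 cultures and lower in 3, with an average difference of 0.06 (SE 0.26, adjusted p = 0.9999, limma's F-test). The KI means, 59.6 ± 34.1 TPM untreated and 57.8 ± 12.7 TPM treated, were below the WT means of 82.4 ± 23.6 and 80.3 ± 9.13 TPM (SD, n = 3 each), but the ranges overlapped. The genotype difference was -0.54 (SE 0.26, adjusted p = 0.505), and 0.03 when each library was expressed relative to its microglial markers. Without T15 it was -0.23, and without any other culture between -0.73 and -0.43. The gene ends over the last exon of *Nab2* on the opposite strand, but only from 127660918 to 127660957. *Nab2* was at 19.5 to 41.3 TPM, and the libraries do not keep strand.

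KI and WT cultures were compared to ask whether the pathway was set differently when *Trem2* carries the R47H change. For genotype 1 of the 10 members passed the threshold (limma's F-test), beside 1.65% of all genes tested, or 185 genes. With culture as a random block 0 of 10 passed, beside 0.687% of all genes, or 77, and 2 of 10 had an unadjusted p under 0.05 in either fit, beside 16.1% of all genes without the block and 14.7% with it. The fit without the block counts both libraries of a culture as independent. The median genotype difference of the 10 was -0.25, against 0.13 over all genes tested.

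The 1 gene was *Ptpn6* (ENSMUSG00000004266, chr6:124720707-124738714, minus strand), which encodes the phosphatase SHP-1. Its level was 284, 304 and 253 TPM in T13, T33 and T43 before IL-4 and 268, 232 and 291 TPM after IL-4. In T15, T22 and T32 it was at 90.6, 175 and 178 TPM untreated and at 181, 163 and 159 TPM after IL-4. Every KI library lay below every WT library, as in 0.482% of the genes tested. *Ptpn6* was lower in KI by 0.81 on average (SE 0.16, adjusted p = 0.0407), by 0.98 in untreated and by 0.64 in treated cultures (SE 0.22 each), and neither of the last pair was called alone (adjusted p = 0.0549 and 0.363). The call was lost with a pseudocount of 0.1 (adjusted p = 0.0556), with no filter (0.375), with no variance trend (0.139), with culture as a random block (0.0819) and without any 1 of T13, T22, T32, T33 and T43 (adjusted p = 0.0528 to 0.214), where 0.0268% to 1.7% of all genes were called, and was kept without T15 (-0.68, adjusted p = 0.0376), where 0.437% were. *Ptpn6* also moved with the microglial markers across libraries (Pearson r = 0.85 over 12 libraries, given as a description, since the libraries share cultures and genotypes). Relative to those markers the difference was -0.24 (limma's F-test, adjusted p = 0.526). The markers include *C1qa*, *Cd68* and *Csf1r*, which the study found lowered when *Trem2* was reduced. Scaling by them can therefore remove part of a genotype difference whatever the microglial content. How far that content contributed was not tested.

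*Irs2* (ENSMUSG00000038894, chr8:10984681-11008458, minus strand), the adaptor that links the IL-4 and insulin receptors to PI3-kinase, lay on the other side. The WT cultures gave 9.65, 11.04 and 7.09 TPM before and 18.2, 14.98 and 16.9 TPM after IL-4. The KI cultures gave 22.2, 21.7 and 46.7 TPM before and 24.9, 46.6 and 24.6 TPM after IL-4. Every KI library lay above every WT library, as in 2.3% of the genes tested. The average genotype difference of 1.19 (SE 0.25) narrowly missed the threshold in limma's F-test (adjusted p = 0.0539, and 0.101 with the random block). It was 1.53 in untreated and 0.84 in treated cultures (SE 0.36 each). Relative to microglial markers it was 1.76 with an adjusted p of 0.00255, in a fit that called 22.7% of all genes for genotype, and across libraries *Irs2* ran against those markers (Pearson r = -0.49 over 12 libraries). The summed TPM of the mural and fibroblast markers, most of it from *Acta2* and *Tagln*, was also higher in every KI than in every WT library, but their mean log2 level was not (1.92 to 3.48 in WT and 2.72 to 3.68 in KI). The summed TPM of 9 oligodendrocyte-lineage markers was 34.7 to 94.9 in WT and 96.03 to 459.9 in KI libraries, most of the KI sum from *Olig1*, and their mean log2 level overlapped (1.49 to 2.32 untreated and 1.44 to 2.20 treated in WT, 2.02 to 3.28 in KI). The part of these cells in the *Irs2* values was not tested. In WT cultures *Irs2* was higher after IL-4 in 3 of 3, by 1.36- to 2.39-fold, and the ranges did not overlap, as for *Jak2*, *Tyk2* and 10.8% of the genes tested. In KI cultures it was 1.122- and 2.15-fold higher in T15 and T22 and 0.525-fold in T32.

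**Figure D4:**
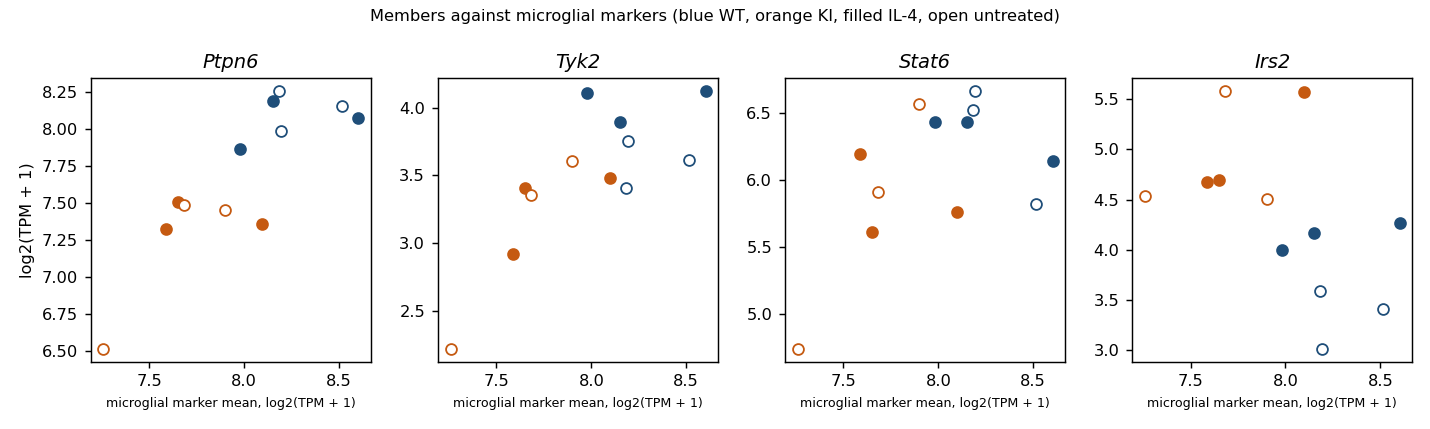
Log2(TPM + 1) of *Ptpn6*, *Tyk2*, *Stat6* and *Irs2* against the mean log2(TPM + 1) of 18 microglial markers, 1 point per library, with WT in blue, KI in orange, IL-4 filled and untreated open. *Ptpn6* (r = 0.85), *Tyk2* (r = 0.78) and *Stat6* (r = 0.53) run higher with the markers and untreated T15 sits lowest, whereas *Irs2* runs lower (r = -0.49).

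For the other 8 members the genotype difference lay between -0.65 (*Tyk2*) and -0.07 (*Jak2*), all below 0 and none past the threshold. Relative to microglial markers, *Il4ra*, *Il2rg*, *Il13ra1*, *Jak1*, *Jak2*, *Jak3* and *Stat6* turned to differences above 0, from 0.03 to 0.50, also without a call. That scaling adds the same amount to the genotype difference of every gene, so these sign changes are not separate observations. The median of all genes differed between genotypes by 0.13 as deposited, by -0.08 once quantiles were matched and by 0.02 with median-ratio scaling. Whether IL-4 acted differently in the genotypes was asked by the interaction. No member passed (0%, 0 of 11204 genes, limma), and at an unadjusted p under 0.05 there were 0 members and 357 genes.

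**Figure D5:**
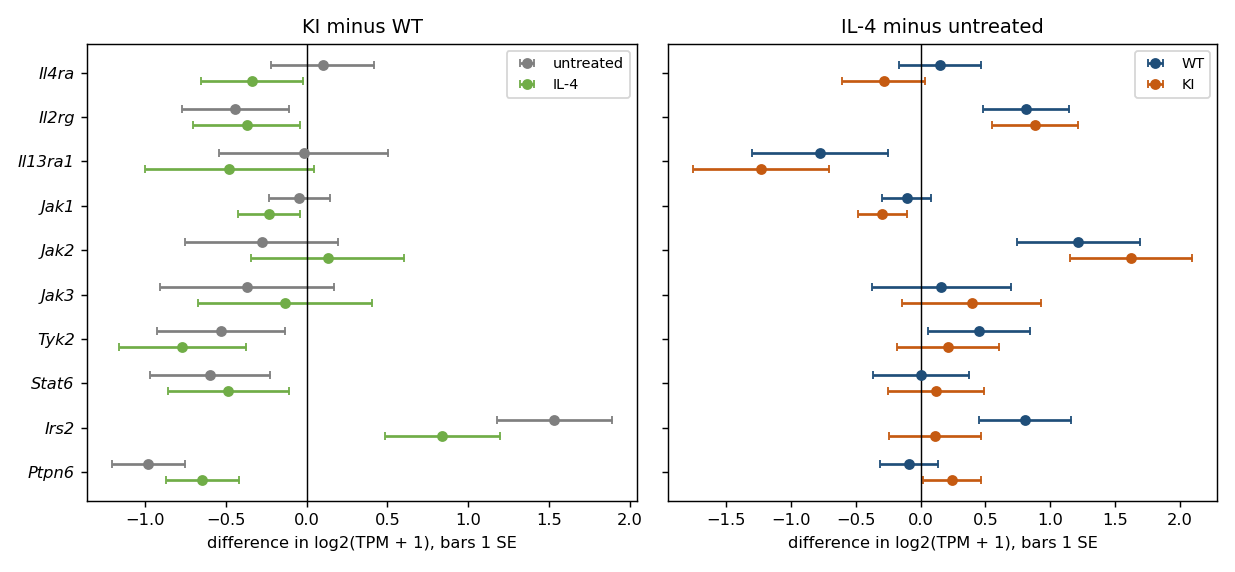
Differences in log2(TPM + 1) for each gene with bars of 1 SE. Left, KI minus WT in untreated (grey) and IL-4 (green) cultures; right, IL-4 minus untreated in WT (blue) and KI (orange) cultures. *Ptpn6* lies at -0.98 and -0.64 and *Irs2* at 1.53 and 0.84 on the left, and *Jak2* at 1.22 and 1.62 on the right.

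The neighbouring parts of the pathway were drawn up as 8 lists holding 86 genes, of which 67 were tested. With IL-4, 7 of the 67 rose and 0 fell, against 84 higher and 16 lower over all genes tested, and the median difference was 0.21 against 0.04 over all genes. All 7 were from the lists of inhibitors, Stat6 cofactors and Stat6 targets. *Retnla* rose by 9.21 on the log2 scale (SE 0.63), the mannose receptor gene *Mrc1* by 3.11 (SE 0.39) and the chitinase-like *Chil3* by 3.39 (SE 0.61). Markers of other cells also moved with IL-4, beside these genes and the members. The 5 endothelial markers summed to 19.4 to 29.1 TPM in untreated and 61.0 to 142 TPM in treated libraries, most of it from *Flt1*, with *Cldn5* at 0 in all 12 and *Cdh5* at no more than 0.334 TPM. The mean log2 level of 6 border macrophage and monocyte markers, *Mrc1* among them, was 1.02 to 1.72 untreated and 1.75 to 2.44 treated, with *Lyve1* at 0 in all 12 and *Cd163* at no more than 0.0546 TPM. Their part in the IL-4 differences was not tested.

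Of 18 tested inhibitors of JAK-STAT signalling 2 rose. *Socs1*, which blocks JAK kinases, was at 0 to 13.6 TPM without IL-4 and at 49.4 to 190 TPM with it (4.25, SE 0.39, adjusted p = 8.92e-05, limma's F-test). Its mean went from 2.06 to 134 TPM in WT and from 11.2 to 86.4 TPM in KI cultures, and the difference between these responses, -2.95 (SE 0.77), did not pass for the interaction (adjusted p = 0.9997). For the interaction 5 of the 67 list genes had an unadjusted p under 0.05 (limma), or 7.46%, against 3.19% of all genes. The lists were drawn up with earlier results of these data known, so nothing is drawn from that share. *Socs2* rose by 2.89 (SE 0.52, adjusted p = 0.0239), though T22 and T32 went only from 7.64 to 10.1 and from 4.58 to 6.00 TPM. Of 8 Stat6 cofactors 1 rose, *Egr2*, a transcription factor that sustains the later IL-4 programme, from 3.87 to 12.3 TPM without IL-4 to 40.3 to 85.3 TPM with it (2.75, SE 0.24, adjusted p = 0.000101). Of the 8 tested Stat6 targets of macrophages 6 were called, among them the 3 above with *Socs1* and *Egr2*, and the median of the list was 3.25.

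None of the 14 other JAK-coupled receptors, the 5 other STATs, the 14 genes of the IRS and PI3-kinase arm or the 3 tested partners of the γ chain passed for IL-4 without the block, with medians of 0.22, 0.22, 0.07 and 0.28. With culture as a block 4 more of the 67 genes rose. They were both chains of the GM-CSF receptor, which signals through Jak2, *Csf2ra* by 0.88 (SE 0.14, adjusted p = 0.0118) and *Csf2rb* by 1.20 (SE 0.18, adjusted p = 0.00757), with the phosphatase gene *Ptpn1* by 0.61 (SE 0.12, adjusted p = 0.0415) and the nuclear receptor gene *Pparg* by 1.72 (SE 0.27, adjusted p = 0.0077). For genotype 0 of the 67 passed (limma's F-test), with 10 at an unadjusted p under 0.05, or 14.9%, against 16.1% of all genes. The ligand gene *Il13* and the decoy receptor gene *Il13ra2* were listed at 0 in all 12 libraries, and *Il4* itself was at 0 to 8.31 TPM, highest in untreated T15.

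By Pearson r of log2(TPM + 1) over the 12 libraries, the genes most like *Stat6* were *Pcna* (r = 0.92), *Il10rb* (r = 0.91) and *Esyt1* (r = 0.91), and those most like *Il4ra* included *Kank2* (r = 0.88) and *Arhgap4* (r = 0.87). These are among the highest of 11204 values, and the libraries share cultures and treatments. Besides *Nab2*, other genes overlap a member's exons. *Raver2*, on the strand opposite to *Jak1*, overlaps it only from 101152367 to 101152370 and was at 0 to 9.43 TPM. *Insl3*, on the strand of *Jak3*, was at 0 to 2.46 TPM. *Gm20489*, annotated through *Il2rg* on its own strand, was at 0.0378 to 0.264 TPM, and the antisense *Gm20531* of *Ptpn6* at 0.133 to 3.28 TPM.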

How the data were processed

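Polyadenylated RNA of 12 primary microglial libraries was sequenced without strand. Reads were trimmed with Trim Galore and quantified with Salmon against GRCm38 (per the submitters' processing notes), and the authors deposited TPM per gene, summarised with tximport. Tool versions are not given in the sources used here. The study's own count-based test used counts, which were not analysed here, so values were taken as log2(TPM + 1) and genes with a mean above 1.5 were fitted with limma 3.58.1 in R 4.3.3 (genotype, IL-4 and interaction, eBayes with a variance trend, moderated F-tests, Benjamini-Hochberg, threshold 0.05). The study used 1.5 on log2 TPM to define expressed genes and filtered its own test by counts. Here the limit is on log2(TPM + 1) and sets the genes tested. Without the block, the p-values rest on the spread of libraries within groups, with both libraries of a culture counted as independent. With it, those for IL-4 and the interaction rest on the spread of within-culture differences. Those for genotype then allow for a correlation between libraries of 1 culture. The fit was tested on simulated data.

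The 10 members and the gene lists were chosen with earlier results of these data known. Named genes are the members, *Trem2* as a check of the labels, list genes past the threshold (at most 5 per list) and the 3 genes most like *Stat6* and *Il4ra*. Some genes that this rule names are not reported here, and *Retnla* stands in their place as the check of treatment. The list genes called only with the block, *Il4*, *Il13*, *Il13ra2*, *Acta2*, *Tagln*, *Olig1*, *Flt1*, *Cldn5*, *Cdh5*, *Lyve1*, *Cd163* and genes overlapping members were named after their values were seen. Pairing rests on the culture number in the titles. Deviations from group means of libraries with 1 number correlated at 0.0792 to 0.378. Symbols matched 48350 of 48623 identifiers, and positions are from GENCODE M21. Alternatives were pseudocount, filter, scaling, variance trend, culture block, microglial markers, contrasts and leaving out each culture.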

Additional observations from a re-analysis of the deposited data

How the results depend on the processing

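TPM keeps no read numbers, so low values such as *Jak2* untreated cannot be given a counting error, and 3 cultures per genotype limit what can be called. With culture as a replicate block, 0 members passed for genotype in place of 1 and 1 in place of 0 for IL-4 (*Il2rg*), and the pathway lists gave 11 genes for IL-4 in place of 7. The block changed no other call of a member.

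The count of members past the threshold for genotype was 0 with a pseudocount of 0.1, with no filter, with no variance trend and within untreated or IL-4 cultures alone, 2 (*Ptpn6* and *Irs2*) with the filter at 3 and with the 1-coefficient test, and 0 to 1 with a culture left out. Relative to microglial markers it was 1, but that gene was *Irs2* and not *Ptpn6*. The share of all genes called for genotype was 1.12% with a pseudocount of 0.1, 0.0185% with no filter, 0.232% with no variance trend, 0.91% and 0.0179% within untreated and IL-4 cultures, 2.21% with the filter at 3, 5.13% with the 1-coefficient test, 1.25% with quantile normalization, 1.71% with median-ratio scaling and 22.7% relative to microglial markers. The pathway lists gave for genotype 1 gene with the filter at 3 and with quantile normalization, 2 with median-ratio scaling and the 1-coefficient test, 8 relative to microglial markers and 0 to 2 with a culture left out, in place of 0. For IL-4 they gave 4 genes with no filter, beside 0.0802% of all genes.

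No value that changed sign belonged to a call. Relative to microglial markers the genotype difference became 0.46 for *Il4ra*, 0.17 for *Il2rg*, 0.33 for *Il13ra1*, 0.44 for *Jak1*, 0.50 for *Jak2*, 0.32 for *Jak3* and 0.033 for *Stat6*, and the interaction became -0.15 for *Il2rg* and -0.10 for *Stat6*. The genotype difference was 0.10 for *Il4ra* in untreated and 0.13 for *Jak2* in IL-4 cultures. The IL-4 difference was 0.15 for *Il4ra* and -0.090 for *Ptpn6* within WT. With a culture left out, the genotype difference ran from -0.26 to 0.12 for *Il4ra*, from -0.41 to 0.071 for *Il13ra1*, from -0.32 to 0.10 for *Jak2* and from -0.61 to 0.062 for *Jak3*. The IL-4 difference then ran from -0.13 to 0.29 for *Stat6* and from -0.11 to 0.18 for *Ptpn6*. The interaction ran from -0.21 to 0.30 for *Il2rg*, -1.02 to 0.50 for *Il13ra1*, -0.18 to 0.92 for *Jak2*, -0.22 to 0.78 for *Jak3*, -0.73 to 0.083 for *Tyk2*, -0.26 to 0.58 for *Stat6* and -0.040 to 0.54 for *Ptpn6*. The changes relative to microglial markers come from a shift shared by all genes, and the cause of the others was not tested.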
